A study of Mus musculus with 43 samples.

Results

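The autosomal repressive chromatin of male mouse embryonic fibroblasts (MEFs) was described from 4 lists of enriched regions, 1 each for H3K9me2, H3K9me3, H3K27me3 and the H3K9 methyltransferase Setdb1. All regions on chromosomes 1 to 19 in the lists of the X/Y cells were taken, whatever their values. They numbered 16749 of the 17090 regions in these 4 lists and of the 48260 in the whole series, and comprised 1674 H3K9me2, 5217 H3K9me3, 6745 H3K27me3 and 3113 Setdb1 peaks. The cells were Setdb1+/+ X/Y MEFs from E13.5 embryos of 129/C57 dams and CAST sires per the labels (the study's text calls them 129/CAST F1), transduced with a retrovirus carrying a Nonsilencing short hairpin and selected with puromycin. Each target had 3 immunoprecipitated libraries, so that 12 of the 43 libraries of the series lie behind these lists, with H3 and whole cell extract (WCE) libraries of the same cells as controls. The libraries of each target had been pooled before peaks were called, so the values below carry no error between replicates and no conditions were tested against each other. The hairpin targets no gene, so these cells are unaltered at Setdb1 but are not untreated. One label, that of chromatin extraction, speaks of NSCs, but the sample titles, the source and the tissue all give MEFs and were followed.

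Di- and trimethylation of lysine 9 on histone H3 mark the heterochromatin of repeats, satellites and silenced gene families, and Setdb1 is an enzyme that lays down this methylation, best known at retroviral elements and at imprinted loci. Trimethylation of lysine 27 is the mark of the Polycomb system, which covers the regulators of other lineages in a committed cell such as a fibroblast. Both kinds of mark form domains much wider than the place at which an enzyme binds. Setdb1 is guided to DNA by zinc finger proteins through the corepressor Trim28.

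Reads from repeated sequence bear on many of the values below, and the letters show where. The pileup of a Setdb1 peak is the number of reads stacked over its summit, and it reached its highest possible value of 196 at 31 peaks in 6 places. A window of 120 bases around the summit with the highest fold enrichment in each place is shown, on the plus strand of GRCm38.p6 (mm10), with capitals for letters that lie in a 12-base word also present in another of the 6 windows on either strand.
chr9:3022480-3022599: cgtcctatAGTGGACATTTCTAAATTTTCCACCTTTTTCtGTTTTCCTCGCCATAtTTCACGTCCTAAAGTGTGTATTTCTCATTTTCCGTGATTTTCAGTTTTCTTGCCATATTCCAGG
chr9:35305299-35305418: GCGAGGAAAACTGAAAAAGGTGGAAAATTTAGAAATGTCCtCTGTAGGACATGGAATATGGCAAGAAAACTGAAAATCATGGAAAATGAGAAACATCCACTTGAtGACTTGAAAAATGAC
chr12:3109941-3110060: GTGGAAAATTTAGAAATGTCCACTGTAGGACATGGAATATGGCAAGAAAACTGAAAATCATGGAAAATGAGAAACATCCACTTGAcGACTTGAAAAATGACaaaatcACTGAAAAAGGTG
chr14:19418160-19418279: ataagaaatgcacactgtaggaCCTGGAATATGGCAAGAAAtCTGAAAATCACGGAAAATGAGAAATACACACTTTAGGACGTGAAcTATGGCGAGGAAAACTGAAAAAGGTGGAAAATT
chr2:98665059-98665178: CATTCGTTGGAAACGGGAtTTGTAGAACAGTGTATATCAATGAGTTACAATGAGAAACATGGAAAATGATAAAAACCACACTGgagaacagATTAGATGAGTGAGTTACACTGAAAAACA
chr6:103649138-103649257: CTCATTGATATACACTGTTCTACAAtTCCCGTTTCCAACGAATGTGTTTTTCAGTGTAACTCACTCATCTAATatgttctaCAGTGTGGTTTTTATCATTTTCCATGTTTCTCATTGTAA
Between 80.0% and 98.3% of the letters in a window were shared in this way, although the 6 places lie on 5 chromosomes. The first 4 read as the mouse major satellite and the last 2 as the minor satellite, which are the tandem repeats of pericentromeres and centromeres. These names come from general knowledge of the repeats, since no repeat annotation was used.

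Other Setdb1 peaks lay on sequence found once in the genome. Windows of 200 bases around 4 such summits are shown, picked after their values were seen, with the hexamer TGCCGC in capitals (GCGGCA on the other strand). TGCCGC is known as the word read by Zfp57, a zinc finger protein of imprinted loci.
Rasgrf1, chr9:89879611-89879810: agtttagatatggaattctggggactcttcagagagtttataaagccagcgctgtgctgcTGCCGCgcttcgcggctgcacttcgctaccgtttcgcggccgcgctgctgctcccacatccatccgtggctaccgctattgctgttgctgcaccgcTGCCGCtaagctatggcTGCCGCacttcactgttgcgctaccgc
Grb10, chr11:12026142-12026341: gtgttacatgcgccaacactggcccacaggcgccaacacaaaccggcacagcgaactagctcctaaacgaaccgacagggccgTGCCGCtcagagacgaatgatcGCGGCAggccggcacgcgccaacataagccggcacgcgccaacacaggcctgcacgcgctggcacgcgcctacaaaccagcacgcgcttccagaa
Plagl1, chr10:13090953-13091152: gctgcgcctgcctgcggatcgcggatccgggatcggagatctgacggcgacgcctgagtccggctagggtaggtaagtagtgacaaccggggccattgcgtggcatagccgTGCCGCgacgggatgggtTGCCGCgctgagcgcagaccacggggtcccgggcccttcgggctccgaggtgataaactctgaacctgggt
Habp4, chr13:64169826-64170025: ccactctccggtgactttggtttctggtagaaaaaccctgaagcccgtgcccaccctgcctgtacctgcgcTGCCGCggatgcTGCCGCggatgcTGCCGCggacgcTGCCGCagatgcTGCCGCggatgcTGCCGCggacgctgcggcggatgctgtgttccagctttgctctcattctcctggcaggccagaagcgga
The windows held 3, 2, 2 and 6 copies of the hexamer in that order. Pileup at these summits was 15, 11, 15 and 45 reads, far below that of the satellites.

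The depth behind the lists is known for Setdb1 only. Of 16482475 Setdb1 tags of 100 bases, 12320583 were kept after at most 1 tag per position was allowed, against 15109145 of 16705472 WCE tags. MACS2 extended tags to 98 bases, which is below the tag length and fixes the pileup ceiling at 196. The depth of the histone mark pools is not given in the sources used here, and these lists hold no score for the mark itself.

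As a check of the label, none of 28 fibroblast genes, such as Col1a1, Pdgfra and Thy1, had its transcription start in a peak of any of the 3 marks. Over all 20807 autosomal protein-coding genes, 1.17% had their start in H3K9me2, 2.95% in H3K9me3 and 18.4% in H3K27me3. Of 20 housekeeping genes, Psmb2 and Rps18 had their start in H3K27me3, each in a peak of 65 kb, and the other 18 had none. Starts of genes of other lineages lay in H3K27me3 at 9 of 13 neural, 8 of 10 liver and gut, 6 of 10 pluripotency, 4 of 9 blood and 4 of 10 muscle genes. The germline and endothelial lists, with 2 of 10 and 1 of 6, were near the share of all genes. Among the marked genes were the regulators Olig1 and Olig2 (315 kb peak), Sox1 (265 kb), Gata4 (230 kb), Pax3 (175 kb), Pou5f1 (140 kb), Myod1 (70 kb) and Tal1 (60 kb), and also products of mature cells such as Alb (30 kb) and Cd4 (40 kb). The 4 neural genes without a mark at their start were Nes, Gfap, Map2 and Tubb3. No gene of these 9 lists had its start in H3K9me2 or H3K9me3.

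By called regions, H3K27me3 was the most extensive mark of the male autosomes and H3K9me2 the sparsest. Such extents depend on the caller and on depth, which is not known for the histone pools, so they are not amounts of a mark. H3K27me3 had 2.74 peaks per Mb (95% Poisson interval 2.67 to 2.80) and covered 231 Mb or 9.40% of the autosomes. H3K9me3 had 2.12 per Mb (2.06 to 2.18) and covered 95.1 Mb or 3.86%, and H3K9me2 had 0.680 per Mb (0.648 to 0.713) and covered 31.5 Mb or 1.28%. Setdb1 had 1.26 peaks per Mb (1.22 to 1.31). These intervals, like all others here, cover counting error only.

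Domains of H3K9 methylation were mostly narrow. The median width was 15 kb for H3K9me2 (quartiles 10 and 20 kb) and also for H3K9me3 (10 and 15 kb), while for H3K27me3 it was 25 kb (15 and 40 kb). The narrowest callable width of 10 kb was that of 43.2% of H3K9me2 and 42.2% of H3K9me3 peaks and of 11.7% of H3K27me3 peaks, so the lower end of the first 2 distributions is set by the caller. With peaks of at least 15 kb only, the densities were 0.386 per Mb for H3K9me2 and 1.22 per Mb for H3K9me3. Peaks over 100 kb numbered 18, 63 and 231, and held 10.5%, 12.4% and 14.8% of the bases of H3K9me2, H3K9me3 and H3K27me3. The median Setdb1 peak was 99 bp, against a smallest possible width of 98 bp.

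Width went with what the domains contained. A gene start lay in 2.35% of the H3K9me2 peaks of 10 kb and in 85.7% of those over 50 kb, with 1.72% and 58.9% for H3K9me3 and 5.09% and 69.4% for H3K27me3. Wider domains also offer more room for a start. Soft-masked bases, which the reference marks as interspersed repeats and low-complexity sequence, made up a median of 71.6% of H3K9me3 peaks of 10 kb and 50.5% of those over 50 kb. In H3K27me3 they were 60.3% of the narrowest class and 25.7% of the widest, where GC content rose from 41.0% to 45.5%. The narrowest H3K27me3 peaks were thus closer in repeat content to H3K9me3 peaks (median 64.7%) than to the wider peaks of their own list.

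**Figure D1:**
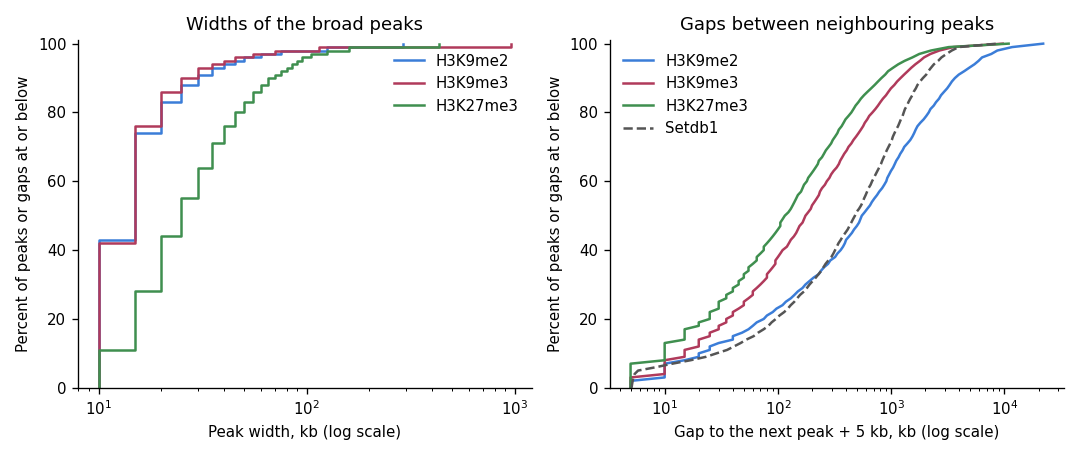
Cumulative share (percent, y axis) of peaks by width for the histone marks, and of gaps between neighbouring peaks for the 4 targets, on chromosomes 1 to 19. The x axes are in kb on a log scale, and 5 kb was added to each gap for plotting. The H3K9me2 and H3K9me3 curves start at 10 kb with over 42.0% of peaks, and median gaps run from 110 kb for H3K27me3 to 545 kb for H3K9me2.

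Neighbouring peaks were closest for H3K27me3, with a median gap of 110 kb (quartiles 25 and 340 kb), then H3K9me3 with 170 kb (45 and 535 kb), Setdb1 with 474 kb (135 and 1099 kb) and H3K9me2 with 545 kb (113 and 1640 kb). Peaks of one mark abutted with no gap 497 times for H3K27me3, 207 times for H3K9me3 and 42 times for H3K9me2, so some domains are split in the lists. Gaps of more than 1 Mb made up 36.8% of H3K9me2, 28.2% of Setdb1, 12.8% of H3K9me3 and 7.33% of H3K27me3 gaps. The longest stretch without H3K9me2 was 22.0 Mb of chromosome 5 (chr5:123550001-145525000) with 303 protein-coding starts, from Vps33a and Clip1 onward. The longest without H3K27me3 was 10.9 Mb of chromosome 16 (chr16:74725001-85615000), where only 21 genes start, App and Ncam2 among them.

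Peaks were clustered rather than spread evenly. Of 2397 windows of 1 Mb, 61.3% held no H3K9me2, 25.7% no H3K9me3, 22.3% no H3K27me3 and 32.7% no Setdb1 peak. The densest 10% of the windows (239) held 50.7% of H3K9me2, 35.5% of H3K9me3, 29.6% of H3K27me3 and 36.9% of Setdb1 peaks. The densest window was chr14:3000001-4000000 for both H3K9me2 (24 peaks) and H3K9me3 (31), and the next one, chr14:4000001-5000000, for H3K27me3 (21). Nearly all of the 19 and 22 genes that start there carry predicted names such as Gm2897 and Gm3115. For Setdb1 the densest window was chr9:3000001-4000000 with 76 peaks, 74 of them in the satellite block shown above.

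Chromosomes differed in their load of each mark. H3K9me2 ranged from 0.433 peaks per Mb on chromosome 9 to 1.59 on chromosome 14, H3K9me3 from 1.31 on chromosome 11 to 2.96 on chromosome 7, H3K27me3 from 1.94 on chromosome 16 to 3.63 on chromosome 11, and Setdb1 from 1.03 on chromosome 5 to 1.95 on chromosome 14. The highest and lowest chromosomes had Poisson intervals that did not overlap, for each target. These chromosomes were picked as the extremes, and the intervals take peaks as independent. Counts per 1 Mb window had a variance over mean from 2.49 (H3K27me3) to 3.95 (Setdb1), so the intervals are too narrow to compare chromosomes. Across the 19 chromosomes, H3K27me3 peaks per Mb followed gene density (Pearson r 0.742, Spearman rho 0.754), whereas r was −0.34 for H3K9me2, −0.024 for H3K9me3 and −0.17 for Setdb1. These are descriptions, since chromosomes share the libraries and differ in base composition.

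**Figure D2:**
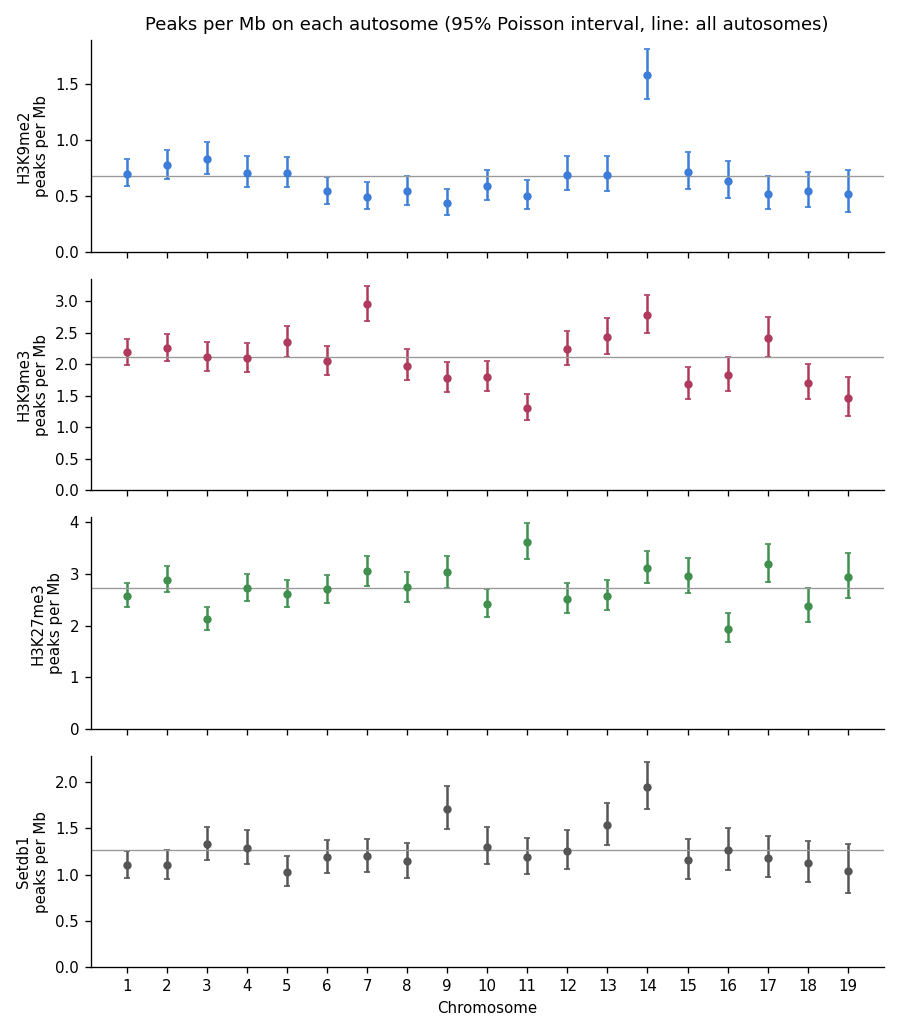
Peaks per Mb with 95% Poisson intervals (counting error only) on each of the 19 autosomes, 1 panel per target. Chromosome 14 stands highest for H3K9me2 (1.59) and Setdb1 (1.95), and chromosome 11 for H3K27me3 (3.63).

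H3K9 methylation leaned toward the start of the chromosomes, where the centromere of mouse autosomes lies. The first 10% of the length of the chromosomes held 26.4% of H3K9me2 bases and 17.5% of H3K9me3 bases, but 8.65% of H3K27me3 bases, and 16.2% of Setdb1 peaks. Chromosome 14 contributed much of this, as 57.6% of its H3K9me2 lay in its first 10%. Without it the shares were 19.8%, 14.8% and 7.98%. The share of H3K9me2 in this stretch was above 10% on 16 of 19 chromosomes, and lowest on chromosome 8 (6.41%).

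By called regions, the marked autosomes were mostly under H3K27me3 alone. Of the 320.9 Mb under any of the 3 marks, 65.7% carried H3K27me3 only, 21.9% H3K9me3 only and 3.85% H3K9me2 only. All 3 marks lay together on 9.45 Mb, or 2.94% of the marked bases, and 87.0% of the autosomes lay in no called region. These classes differed in sequence. H3K27me3 alone lay on GC-rich (45.4%) and repeat-poor DNA with 17.3 protein-coding starts per Mb, against 7.69 per Mb in unmarked DNA. H3K9me3 alone lay on repeat-rich DNA, with 60.3% of bases soft-masked against 32.7% in unmarked DNA, and had 5.57 starts per Mb, and H3K9me2 alone on AT-rich DNA (38.4% GC) with 4.05 starts per Mb.

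Regions under all 3 marks consisted largely of duplicated DNA. Of 50-base words sampled there, 69.5% occurred more than once in the genome, compared with 6.07% under H3K27me3 alone, 18.3% under H3K9me2 alone, 39.9% under H3K9me3 alone and 10.6% over the autosomes. A read that holds such a word may be hard to place. Reads of 100 bases can still be unique over their full length, which was not tested. Protein-coding starts under all 3 marks belonged to 119 genes, 55 of them on chromosome 14. Predicted names (Gm or Rik) made up 73.9% of these, against 8.48% of all genes. The named ones included Sp100, Sp110 and Sp140, which encode nuclear body proteins and lie together in peaks of 195 to 225 kb on chromosome 1.

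Overlap between the marks was set beside equally spaced rotations, in which the regions of 1 mark were shifted along each chromosome past its first 3 Mb. The rotations give the level met when position along the chromosome is not kept, while the widths and the spacing stay the same. The shares are descriptive and no p-value was drawn from them. A rotation also breaks any common preference for one kind of DNA, so base composition, gene density and repeats can move with the overlap.

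H3K9me2 and H3K9me3 occupied the same places far more than their rotations. Of the H3K9me2 peaks, 46.5% (95% Clopper-Pearson interval 44.1 to 48.9) overlapped H3K9me3, with 6.80% on average and 14.7% at most under rotation. Of the more numerous H3K9me3 peaks, 14.1% (13.2 to 15.1) overlapped H3K9me2, against 2.22% on average and 4.26% at most. The shared bases came to 16.4 Mb, which is 52.2% of H3K9me2 and 17.3% of H3K9me3, and to 12.1 times the rotation mean. This ratio was above 1 on all 19 chromosomes and ran from 7.28 to 19.8. In bins whose sampled 50-base word is unique it was 8.06.

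H3K9me2 also met H3K27me3 more than under rotation. The share of H3K9me2 peaks that overlapped H3K27me3 was 32.7% (30.5 to 35.0), with rotations between 9.98% and 15.7%. The shared 12.2 Mb were 4.02 times the rotation mean, with a range from 1.87 to 6.21 over chromosomes and a value of 2.82 in unique bins. Of these 12.2 Mb, 9.45 Mb carried H3K9me3 as well.

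H3K9me3 and H3K27me3 shared less, relative to their extents. Of the H3K9me3 peaks 17.9% (16.9 to 18.95) overlapped H3K27me3, against 12.7% on average and 14.4% at most under rotation, and of the H3K27me3 peaks 14.6% (13.8 to 15.5) overlapped H3K9me3, against 9.28% and 10.4%. The 17.9 Mb in common were 1.94 times the rotation mean, with 1 chromosome below 1 (0.986) and the highest at 3.67. In unique bins the ratio was 1.48. H3K27me3 peaks that overlapped H3K9me3 had a median GC content of 41.2% and the others 44.6%. According to the methods of the study, the H3K9me3 antibody showed slight cross-reactivity with H3K27me3, and its part in this overlap was not tested.

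Away from the shared places the 2 systems kept apart. H3K9me3 peaks that did not overlap H3K27me3 lay a median of 295 kb from the nearest H3K27me3 peak, farther than in any rotation (170 to 250 kb). H3K27me3 peaks outside H3K9me3 lay 345 kb from it (rotations 215 to 300 kb), and those outside H3K9me2 lay 985 kb from it (665 to 930 kb). H3K9me2 peaks outside H3K9me3, in contrast, lay 135 kb from the nearest H3K9me3 peak, which is nearer than in any rotation (155 to 290 kb). Across 48106 bins of 50 kb the covered shares of H3K9me2 and H3K9me3 had a Pearson r of 0.435 (Spearman rho 0.266), and those of H3K9me3 and H3K27me3 an r of 0.0606 (rho 0.0331).

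**Figure D3:**
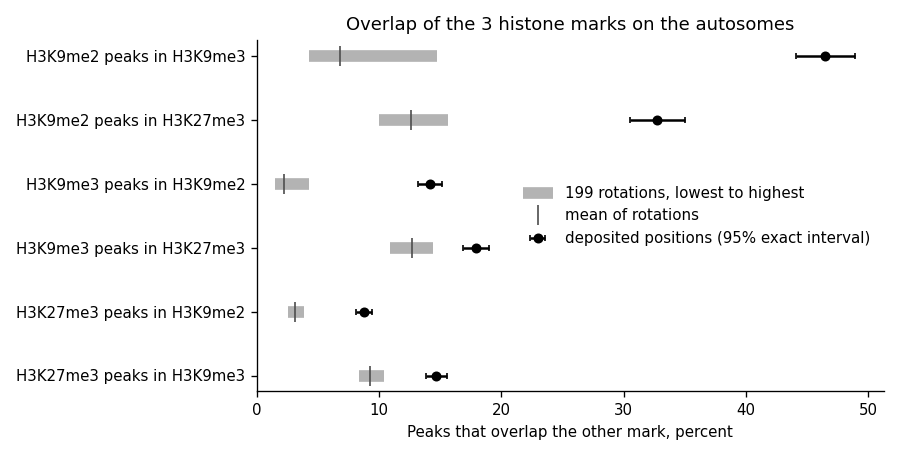
Percent of the peaks of one histone mark that overlap another, with 95% Clopper-Pearson intervals, beside the mean and the range from lowest to highest over the rotations. All 6 observed shares lie above the highest rotation, from 8.73% of H3K27me3 peaks in H3K9me2 to 46.5% of H3K9me2 peaks in H3K9me3.

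The widest H3K9-methylated domains held zinc finger, Obox and predicted genes, and most of the widest H3K27me3 domains held developmental regulators, while several domains were shared. The widest H3K9me3 peak, chr4:146885001-147845000, spanned 960 kb and 13 protein-coding genes from Gm21411 to Zfp933, most of them zinc finger genes, and held 15 Setdb1 peaks. The next, chr4:145370001-145905000, spanned 535 kb over Zfp990, Gm13212, Zfp980 and Zfp986 and held 12. H3K27me3 covered 40.6% and 67.3% of these 2 peaks. The others were a 360 kb peak over Obox2 and Obox1 on chromosome 7, homeobox genes of the oocyte, and 2 peaks with no protein-coding gene, chr3:91135001-91480000 and chr8:55340001-55640000.

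The widest H3K9me2 peak, chr7:15115001-15405000 (290 kb), lay within the H3K9me3 peak over Obox2 and Obox1, and was the widest region shared by the 2 marks. The next were chr14:6860001-7105000 over Gm3667, Gm6356, Gm10406, Gm3685 and Gm3696, with 13 Setdb1 peaks, and chr8:20490001-20715000 over Gm21119. The latter was at the same time the widest region under all 3 marks (225 kb). The remaining pair were chr9:88670001-88890000 over Mthfsl, Bcl2a1d and Trim43c and chr2:177205001-177415000 over Gm14410, Gm14409, Gm14412 and Gm14418. Neither held a Setdb1 peak. The widest region shared by H3K9me3 and H3K27me3 was chr1:84950001-85350000 (400 kb) over C130026I21Rik, A530032D15Rik and Gm10553.

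The widest H3K27me3 peak was the Hoxc cluster, chr15:102725001-103155000, with 430 kb from Hoxc13 to Smug1. It was followed by chr17:6350001-6730000 over the dynein light chain genes Dynlt1b, Dynlt1c and Dynlt1f and over Sytl3, 69.7% of which was also under H3K9me2 and 42.1% under H3K9me3, and by chr5:35200001-35540000 over Adra2c, Hmx1 and Cpz. The next were chr16:91045001-91360000 over 4932438H23Rik, Olig2 and Olig1, the latter 2 being regulators of oligodendrocytes, and chr19:44580001-44885000 over Pax2, a regulator of the kidney. None of these 5 held a Setdb1 peak.

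Gene families divided between the marks in the same manner. Of 39 Hox genes, which set position along the body axis, 37 had their start in H3K27me3 (18.4% of all genes had) and none in H3K9me2 or H3K9me3. Hoxa2 and Hoxa4 were the exceptions, 4.83 and 8.25 kb from the nearest H3K27me3 peak, and the peaks of the 4 clusters were up to 155 kb (Hoxa), 275 kb (Hoxb), 430 kb (Hoxc) and 175 kb (Hoxd) wide. The homeobox and paired regulators (Pax, Lhx, Irx, Nkx, Dlx and sine oculis genes) had 46 of 49 starts in H3K27me3 and none in H3K9 methylation, with Pax2 (305 kb), Lhx1 (240 kb), Pax3 (175 kb) and Six6 (160 kb) in the widest peaks. The 3 unmarked ones were Dlx2, 1.75 kb from a peak, Six4 and Six5.

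The large receptor families showed the other pattern. Among 1128 olfactory receptor (Olfr) genes, 138 (12.2%) had their start in H3K9me3, against 2.95% of all genes, 61 (5.41%) in H3K27me3 and 7 in H3K9me2. Olfr1084, Olfr1136 and Olfr1137 on chromosome 2 lay in H3K9me3 peaks of 55 kb. Of 327 vomeronasal receptor (Vmn1r and Vmn2r) genes, 54 (16.5%) were in H3K9me3, such as Vmn2r44 and Vmn2r45 in a peak of 235 kb, 10 in H3K9me2 and 4 in H3K27me3. No mark lay at the start of 82.2% and 81.7% of both families, close to the 79.2% of all genes.

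Zinc finger genes with a Zfp symbol had 39 of 385 starts (10.1%) in H3K9me3 (2.95% of all genes), 11 (2.86%) in H3K9me2 (1.17% of all), and 47 (12.2%) in H3K27me3, below the 18.4% of all genes. Zfp979 and Zfp982 had all 3 marks at their start, in peaks of 195 kb (H3K9me2), 960 kb (H3K9me3) and 195 kb (H3K27me3). Reads of these near-identical genes may be split among copies. Clustered protocadherins, neuronal adhesion genes that share exons at the end of their cluster, had 17 of 57 starts (29.8%) in H3K9me3, against 2.95% of all genes, and none in H3K9me2 or H3K27me3, against 1.17% and 18.4%. Pcdhga7, Pcdhga10, Pcdhga11 and Pcdhga12 lay in a single peak of 65 kb.

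Setdb1 was found in H3K9-methylated domains more than under rotation, and in purely Polycomb domains less than the rotation mean. Of the 3113 Setdb1 peaks, 17.0% (95% Clopper-Pearson interval 15.7 to 18.4) lay in H3K9me3, with 4.05% on average and 8.58% at most over rotations of the Setdb1 peaks. In H3K9me2 lay 9.70% (8.68 to 10.8), against 1.42% and 3.95%, and in H3K27me3 15.3% (14.01 to 16.6), against 9.67% and 12.3%. In H3K27me3 without H3K9 methylation, however, lay 6.23% (5.41 to 7.14), below the lowest rotation (7.32%). Most Setdb1 peaks, 75.8% (74.2 to 77.3), lay in none of the 3 marks, which is fewer than in any rotation (83.3% to 88.3%). Among the peaks with a q-value under 0.05 the shares were higher, at 33.5% in H3K9me3, 20.3% in H3K9me2 and 25.9% in H3K27me3.

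**Figure D4:**
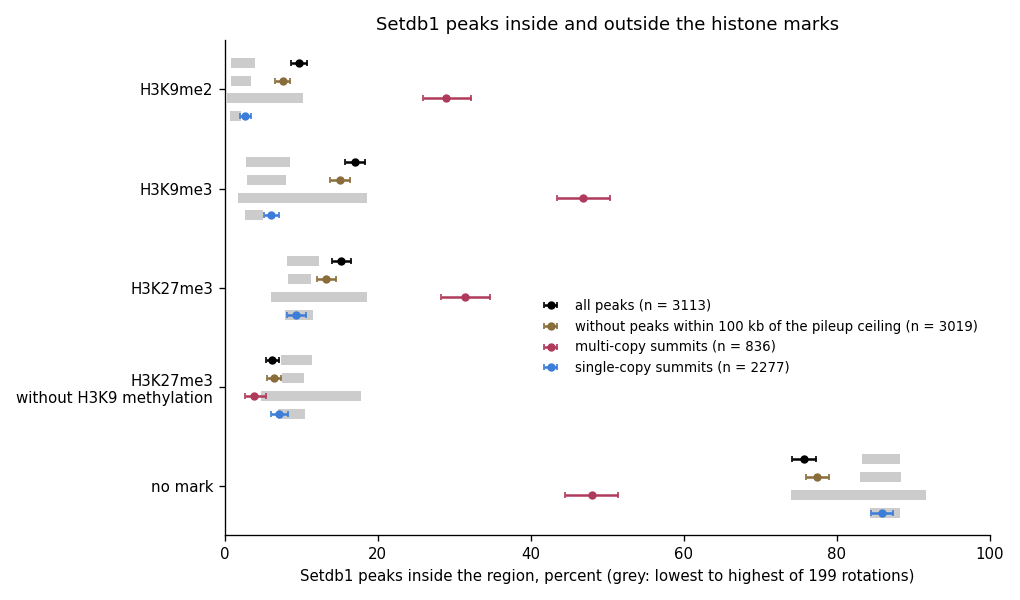
Percent of Setdb1 peaks with at least 1 base inside each mark, with 95% Clopper-Pearson intervals, beside the range from lowest to highest over the rotations. Shown are all peaks, peaks left without the places at the pileup ceiling, multi-copy summits and single-copy summits. For H3K9me3 the share is 17.0% of all peaks, 46.9% of multi-copy summits and 6.02% of single-copy summits.

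Repeated sequence carried much of this overlap. The 50 bases around the summit occurred more than once in the genome at 836 of the 3113 peaks (26.9%), but at 80.1% of those in H3K9me2, 74.1% in H3K9me3, 16.5% in H3K27me3 without H3K9 methylation and 17.0% in no mark. Of the 836 multi-copy summits 46.9% lay in H3K9me3, 28.9% in H3K9me2 and 31.5% in H3K27me3. Of the 2277 single-copy summits 6.02% (5.08 to 7.07) lay in H3K9me3, where rotations ran from 2.64% to 5.05%, and 2.64% (2.02 to 3.38) in H3K9me2, where they ran from 0.747% to 2.06%. For H3K27me3 the single-copy share of 9.31% was within its rotations (7.91% to 11.6%), and so were that of H3K27me3 without H3K9 methylation (7.11%, with 6.98% to 10.5%) and that of no mark (86.0%, with 84.4% to 88.3%). Single-copy Setdb1 thus stayed above every rotation in H3K9me3 and in H3K9me2, by 1.53 and 1.99 times the mean. Rotations also place single-copy summits on multi-copy DNA, where they could not be found, and the effect of this on both ratios was not tested.

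In density, Setdb1 was highest where all 3 marks met, with 23.5 peaks per Mb (95% Poisson interval 20.5 to 26.8), 15.7 without the places at the ceiling and 3.18 for single-copy summits alone. It had 3.04 per Mb under H3K9me3 only, 1.54 under H3K9me2 only, 0.920 under H3K27me3 only and 1.10 in unmarked DNA. For single-copy summits these were 1.20, 1.05, 0.769 and 0.914 per Mb. All these densities are per Mb of all bases in a class, multi-copy bases included. Multi-copy words were 69.5% of those sampled under all 3 marks, and 39.9%, 18.3%, 6.07% and 9.41% in the classes of the last list. Single-copy densities are therefore understated most where such words are common. Setdb1 peaks inside H3K9me3 were mostly intergenic (66.4%), and 8.51% lay within 1 kb of a protein-coding start, against 2.71% in unmarked DNA. Peaks this close to a start numbered 45 in H3K9me3, 44 in H3K27me3 and only 4 in H3K27me3 without H3K9 methylation. The satellite block on chromosome 9 puts 74 Setdb1 peaks among starts of predicted genes, and the share without it was not computed.

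The strength of Setdb1 peaks was low for most. A pileup of 4 or 5 reads was that of 41.2% of peaks and 6 or 7 reads that of 41.0%, with a median of 6. Inside and outside the marks the medians were close, at 8 and 6 reads for H3K9me2, 7 and 6 for H3K9me3 and 7 and 6 for H3K27me3, and 6 on both sides for H3K27me3 without H3K9 methylation. Strong peaks were another matter. A pileup of at least 10 was reached by 46.7% of peaks inside H3K9me2 and 6.79% outside, by 36.1% inside H3K9me3 and 5.46% outside, and by 32.0% inside H3K27me3 and 6.82% outside. Inside rotated H3K9me2, this share varied between 0% and 64.2%, inside rotated H3K9me3 between 0.847% and 47.4%, and inside rotated H3K27me3 between 4.06% and 27.5%. That of H3K27me3 was above all of its rotations, the other 2 were not. In H3K27me3 without H3K9 methylation the share was 6.19%, against 11.0% outside and rotations of 3.67% to 28.6%.

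The satellite places accounted for the highest values. The 6 places held 94 Setdb1 peaks within 100 kb of a peak at the ceiling, and 93 of the 116 peaks with a pileup of at least 100. The block on chromosome 9, with 17 of the 31 ceiling peaks, lay in all 3 marks (H3K9me2 peak chr9:2995001-3045000), while the other 5 places lay in none. H3 itself stood at 142 depth-scaled reads per kb (the deposited log2 values on the linear scale, per kb of width) in that H3K9me2 peak, against a median of 17.0 over H3K9me2 peaks. WCE reads were high there too, as fold enrichment over the local WCE background was only 1.26 to 2.19 at the 31 ceiling peaks (median 1.46), against a median of 3.65 at the others. Without the 6 places, a choice made after seeing the data, 29.4% of peaks in H3K9me2 had a pileup of at least 10 (6.13% outside, rotations 0% to 18.5%), 25.7% in H3K9me3 (4.72% outside, 0.847% to 17.9%) and 19.5% in H3K27me3 (6.11% outside, 3.31% to 13.7%). These 3 shares were above every rotation. For H3K27me3 the excess was absent without H3K9 methylation and smaller at single-copy summits. Among peaks in H3K27me3 without H3K9 methylation, 6.19% had at least 10 reads, against 8.0% of the others left (rotations 3.28% to 13.0%). Among single-copy summits in H3K27me3 6.86% had, against 3.21% outside. This was within the rotations (0.939% to 6.99%, mean 3.52%) but near their top. The mean pileup of these summits exceeded that outside by 2.03 reads, above every rotation (highest 1.91). These summits include neighbours of 186 and 175 reads on chromosome 15, which also lay in H3K9me2 and H3K9me3. The median was 6 reads on both sides, and the mean without these neighbours was not computed. Single-copy summits in H3K27me3 without H3K9 methylation had a mean of 5.82 reads, against 6.39 at the others.

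Medians of fold enrichment were nearly equal inside and outside the marks. They were 3.58 inside H3K9me2 and 3.65 outside, and 3.65 on both sides of H3K9me3 and of H3K27me3. The value 3.65 is a tie among peaks with a pileup of 5. It was that of 597 peaks in no mark, 67 in any H3K9 methylation and 50 in H3K27me3 without it. Equal medians may reflect this tie and do not show equal enrichment. Inside H3K9me3, single-copy summits had a median of 3.90, against 3.65 outside. Of the 138 peaks with at least 6-fold enrichment, 32.6% lay in H3K9me3, against 17.0% of all peaks, 7.25% in H3K9me2 (9.70% of all) and 13.0% in H3K27me3 (15.3% of all), and 87 lay in no mark. For the 58 single-copy ones the share in H3K9me3 was 27.6%, against 6.02% of all single-copy summits. Of the 19 peaks with at least 10-fold enrichment, 17 lay in no mark, where 75.8% of all peaks lay, and 2 in H3K9me3.

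**Figure D5:**
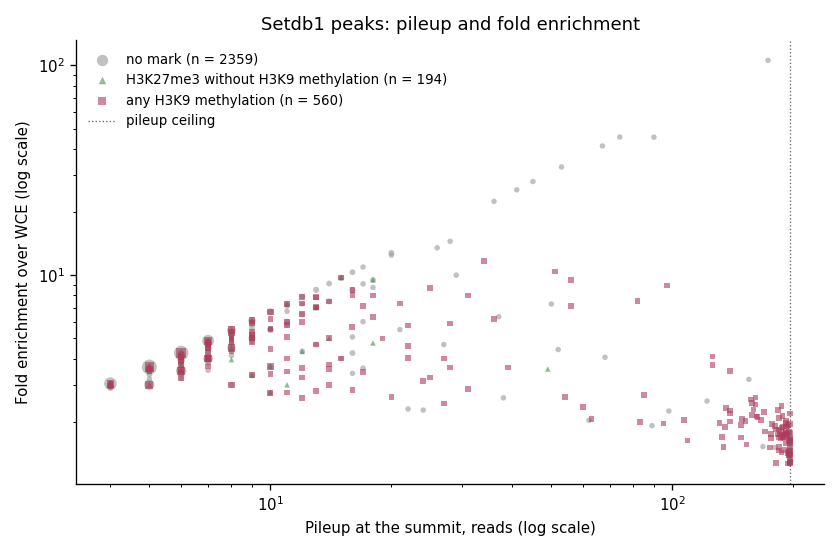
Pileup at the summit (reads, log x axis) against fold enrichment over the local WCE background (log y axis) for each of the 3113 Setdb1 peaks, coloured by the marks they lie in. Peaks at the ceiling of 196 reads have 1.26- to 2.19-fold enrichment, while the highest fold, 105.7 on chromosome 17, belongs to a peak of 173 reads in no mark.

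The 5 Setdb1 peaks with the highest pileup, ordered by fold enrichment, were all satellite summits at 196 reads. The first, chr9:3022487-3022587, had 2.19-fold enrichment and 14 copies of its 50-base summit word, and the next 2 lay in introns of the predicted gene Gm10717 with 1.95- and 1.77-fold enrichment. The fourth, chr2:98665070-98665168, lay 2.18 kb from Gm10800 in no mark (1.71-fold), and the fifth lay in an intron of Gm10715 on chromosome 9 (1.68-fold). The first 2 were also the highest inside each of the 3 marks. The remaining peaks named below were picked after their values were seen.

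Beyond the satellites, a few strong peaks in all 3 marks also stood on unusual DNA. A pair of peaks between 24611569 and 24616152 on chromosome 1 had pileups of 192 and a fold enrichment of 1.97 and 1.91. Of the 4535 words of 50 bases in this stretch, 98.0% were also present in the mitochondrial genome of the reference. At chr15:75085529-75085993, 26.1 kb from Ly6c2, a single-copy summit had 186 reads at 1.67-fold enrichment, in an H3K9me2 peak with 170 depth-scaled H3 reads per kb. The highest H3 density of the H3K9me2 and H3K27me3 lists, 241 per kb, was at chr11:3095001-3205000 over Sfi1 and Eif4enif1, with a single Setdb1 peak of 28 reads. The copy number of these stretches in the cells was not tested.

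The strongest Setdb1 peaks over background lay in single genes or between genes. The summit on chromosome 17 at 4626266 had 173 reads and 105.7-fold enrichment and lay 368 kb from Arid1b, on a word with 3 copies. In introns of Camk2b, a kinase subunit, and Ano2, a chloride channel, single-copy summits had 74 reads (45.6-fold) and 90 reads (45.5-fold), and in an intron of Habp4 45 reads (27.95-fold). The Ano2 window is itself a tandem array, since copies of CCATT or CCACT made up 77.5% of its 200 bases, although the 50-base word at its summit occurs once. None of these 4 lay in a mark. Copies were counted in the reference genome only, and likeness of these windows to the transduced retrovirus was not tested.

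Among single-copy summits in H3K27me3 without H3K9 methylation, which numbered 162, the highest pileups were 18 reads on chromosome 1 (72562481, 20.8 kb from Smarcal1, 9.50-fold), 15 reads on chromosome 9 (89879711, 30.2 kb from Rasgrf1, 9.72-fold) and 11 reads on chromosome 11 (12026242, in an exon of Grb10, 7.29-fold). Rasgrf1, a nucleotide exchange factor, and Grb10, a growth factor receptor adaptor, are imprinted genes, and their windows are printed above. At least 10 reads were reached by 5 of these 162 summits (3.09%), near the 2.81% of single-copy summits in no mark, and by 29.2% of the 137 single-copy summits in H3K9me3 (24.8% of 129 without the satellite places).

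The hexamer TGCCGC, searched on both strands in 300 bases around each single-copy summit, was chosen after the strongest windows had been read. It occurred at 27.6% of the 58 peaks with at least 6-fold enrichment (95% Clopper-Pearson interval 16.7 to 40.9), at 3.94% of 889 peaks from 4- to under 6-fold, at 1.54% of 1167 from 3- to under 4-fold and at 1.23% of 163 under 3-fold. In windows 1 kb to either side of the 58 peaks it occurred at 3.45%, and in all 4554 windows 1 kb from a single-copy summit at 2.22%. These 58 windows were also richer in CpG, with 8.67 per window against 3.60 at 1 kb, and the hexamer itself holds a CpG, so the share of base composition in this was not tested. The 16 peaks are named by a gene they lay in or by the nearest protein-coding start, whatever its distance. The names are Habp4, Polrmt, Rasgrf1, Spred2, Plagl1, Zfp777, Rtl1, Nap1l5, Nnat, Gnas, Kmt2a, Igf2r, Grb10, Repin1, Efna5 and Spry1. The Efna5 peak was intergenic and 1400607 bp from that start. The Rtl1 peak, 71908 bp from its start, is the same peak as that given for Meg3 below. The peaks at Rasgrf1 and Grb10 were inside H3K27me3 and the other 14 in no mark, where 86.0% of all single-copy summits lay. Of all 58 peaks, 16 (27.6%) lay in H3K9me3, and none of these was among the 16 with the hexamer. A match of these letters is not evidence of a bound protein.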

How the data were processed

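Chromatin immunoprecipitation followed by single-end sequencing was carried out for the 4 targets in male MEFs. Per the labels the submitters' processing notes name CASAVA 1.4, Bowtie2, MACS2 and mm10, and reads were aligned to an mm10 genome with strain-specific bases masked. For the histone marks, the authors pooled the libraries and called broad regions in Seqmonk against H3, in steps of 5 kb. These deposited lists give the H3 reads in each region as log2 values scaled to library depth by the authors. For Setdb1, the authors ran MACS2 with down-sampling against WCE. Per the file headers, the deposited list gives the pileup signal (read coverage at the summit), the fold enrichment (ratio of pileup to local background), and −log10 p-values and −log10 q-values.

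Chromosomes 1 to 19 were used. The members, gene lists and settings were chosen with earlier results of these data known. Values were computed in Python 3.11.15 (matplotlib 3.10.9, numba 0.67.0, scipy 1.17.1, pandas 2.3.3 and numpy 2.4.6), with genes from GENCODE M21 and sequence from GRCm38.p6. Regions overlapped, and Setdb1 peaks counted as inside a mark, when they shared at least 1 base. Setdb1 peaks per Mb of a mark were counted by summit. Rotations moved regions by equally spaced steps along each chromosome past its first 3 Mb, which are unsequenced, and serve as a reference level with no p-value. The rotation code was tested on simulated data. A summit was called multi-copy when the 50 bases around it occurred elsewhere in the genome. H3 per kb is the H3 value on the linear scale divided by width. Intervals are exact Poisson or Clopper-Pearson at 95% and cover counting error only.

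Named regions were the 5 widest of each mark, the widest shared ones, the 5 Setdb1 peaks of highest pileup and the 2 highest inside each mark, the highest and lowest chromosomes, and up to 4 members of each gene list by width of the peak over their start. Alternatives changed the minimum width, the merging of neighbours, the overlap required, the Setdb1 threshold, multi-copy summits, the measure of strength, the rotations and the use of gene bodies in place of starts.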

Additional observations from a re-analysis of the deposited data

How the results depend on the processing

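No paired analysis was possible because each target is 1 pooled list with no values of single libraries, and for the same reason no replicate could be left out in turn. With histone peaks of at least 15 kb only, H3K9me2 and H3K9me3 fell to 0.386 and 1.22 peaks per Mb, their median gaps became 945 and 235 kb, and the shares of H3K9me3 in H3K9me2, H3K27me3 in H3K9me2, H3K27me3 in H3K9me3 and Setdb1 in H3K9me3 were 12.8%, 5.76%, 9.52% and 15.5%. With neighbours up to 10 kb apart merged, median gaps were 680 kb (H3K9me2), 220 kb (H3K9me3) and 160 kb (H3K27me3). When at least 50% of a peak had to be covered, 12.4% and 16.2% of H3K9me3 peaks lay in H3K9me2 and H3K27me3, and 7.19% and 11.6% of H3K27me3 peaks in H3K9me2 and H3K9me3. Setdb1 peaks with −log10 p of at least 5 numbered 0.614 per Mb, with a median width of 104 bp and gap of 964 kb. Of these, 13.6%, 22.6% and 18.5% lay in H3K9me2, H3K9me3 and H3K27me3, and their median pileup inside over outside was 4.17, 1.67 and 1.5, where all peaks gave 1.33, 1.17 and 1.17. With q under 0.05 the shares were 20.3%, 33.5% and 25.9% and the pileup ratios 15.8, 1.62 and 2.12. Single-copy summits gave shares of 2.64%, 6.02% and 9.31%. Fold enrichment in place of pileup turned the direction for H3K9me2, with a ratio of 0.982, and gave 1.00 for H3K9me3. Both ratios rest on medians at or near a fold value that many peaks share. Counting any base of a gene raised the genes in H3K9me2 to 570 and in H3K9me3 to 1521. The causes of these shifts were not tested beyond what each setting removes. Of settings added after seeing the data, leaving out the 6 places at the pileup ceiling gave Setdb1 shares of 7.55%, 15.1% and 13.3%. Single-copy summits without those places gave 2.30%, 5.72% and 9.04%, and a pileup ratio of 1.00 for H3K9me2, while bins with unique words gave a ratio of 1.48 for bases shared by H3K9me3 and H3K27me3. Of the other alternatives, 60 values stayed within a set range. This was the counting interval, or for counts a change of less than 1.5 times. For ratios of shared bases it was the range of ratios over single rotations, which is wide. For H3K9me2 with H3K9me3 it ran from 3.13 to 23.2, so the fall from 12.1 to 8.06 in unique bins was within it. Of 90 counts of list genes 12 moved by more, 11 of them when gene bodies replaced starts.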

Other observations

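After the hexamer windows had been read, 20 imprinted genes were listed, and the list is therefore not independent of the peaks. A Setdb1 peak lay within 50 kb of 13 of them, against 16.0% of all 20807 autosomal protein-coding genes, and a peak with at least 6-fold enrichment within 50 kb of 8, against 0.880%. The 8 were Plagl1, Grb10, Rasgrf1, Igf2r, Gnas, Nnat, Meg3 and Nap1l5, with pileups of 11 to 16 reads and between 2 and 5 hexamers in the window of the summit. At Mest, Peg3 and Inpp5f the highest peaks had 5.50-, 5.47- and 4.33-fold enrichment and 2, 2 and 3 hexamers. At Igf2 the highest peak had 4.25-fold enrichment and no hexamer, and it lay in H3K27me3. At Zrsr1 it was 4.50-fold with no hexamer. No peak lay within 50 kb of H19, Kcnq1ot1, Snrpn, Peg10, Mcts2, Cdkn1c or Impact. None of the 13 highest peaks lay in H3K9me2 or H3K9me3 as called here, where regions span at least 10 kb.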
